A study of Mus musculus with 4 samples.

Results

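CC chemokines were examined in microglia of mice fed cuprizone (CPZ), a copper chelator that kills oligodendrocytes and strips myelin. The members were the 9 genes with the symbols Ccl2, Ccl3, Ccl4, Ccl5, Ccl6, Ccl7, Ccl9, Ccl12 and Ccl24 among the 32285 genes of the deposited gene list, chosen by name, and Ccl2 was set against the others. The 2 PRMT1FL mice carried floxed Prmt1 alleles on a C57BL/6 background and are called wild type in the labels. The 2 PRMT1Cx3cr1-KO mice carried the same alleles with a tamoxifen-inducible Cre (Cx3cr1CreERT), which is active in microglia and in other macrophages that express Cx3cr1. The methods give tamoxifen to mice of both groups, and both groups received 0.2% CPZ for 5 wk. The labels attach an age of 5 to 6 wk to the diet, and the methods attach it to the tamoxifen that preceded the diet. Brains were perfused and dissociated with enzymes, CD45+ CD11b+ cells were sorted, and each mouse gave 1 droplet library.

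Chemokines of the CC family are small secreted proteins that bind G protein-coupled receptors and draw leukocytes toward their source. Ccl2, Ccl7 and Ccl12 act through Ccr2 on monocytes, Ccl3, Ccl4 and Ccl5 draw monocytes and T cells, and Ccl24 acts through Ccr3 on eosinophils. Ccl6 and Ccl9 are rodent members of the family that act through Ccr1. Microglia and macrophages make several of these proteins after injury, after interferon or through NF-kB, and microglia are known to raise Ccl3, Ccl4 and immediate early genes when they are dissociated with warm enzymes.

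The 9 genes lie at 3 places in GRCm38 (mm10), with positions from GENCODE M21. Ccl2 (ENSMUSG00000035385, chr11:82035571-82037453), Ccl7 (chr11:82045712-82047525) and Ccl12 (chr11:82101845-82103400) lie on the plus strand within 67.8 kb. Ccl5, Ccl9, Ccl6 and Ccl3 on the minus strand and Ccl4 on the plus strand lie within 139 kb further along chromosome 11, from chr11:83525778-83530518 for Ccl5 to chr11:83662584-83664683 for Ccl4. Ccl24 lies alone at chr5:135569937-135573049 on the minus strand. No member shared a stretch of 31 bases of transcript with another chemokine gene, so no exact match of that length could be assigned to both. Of the stretches of Ccl9, 3.75% also occurred in genes that are not chemokines.

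The libraries held 76943248 to 99559644 unique molecular identifiers (UMIs, tags that count each captured RNA once), and 8170 to 11427 cells per mouse passed the limits on genes and mitochondrial UMIs. Of these, 7814 to 10974 cells per mouse fell into microglial clusters, with sums of 72873612 to 93537395 UMIs, and the mouse is the replicate in every comparison. Summed levels are given as CPM, UMIs scaled to the same total in each sum, and count 3' ends, so a level is compared between mice and clusters but not between genes. All 10 microglial markers (such as P2ry12, Tmem119 and Siglech) were detected, at summed levels of 13836 to 15263 CPM over the mice. Prmt1 in microglia was 91.1 and 84.0 CPM in PRMT1FL mice and 70.3 and 70.7 CPM in PRMT1Cx3cr1-KO mice (log2 fold change -0.39, SE 0.07, Benjamini-Hochberg adjusted p = 0.0777 in the quasi-likelihood test of edgeR), a reduction in both mice that did not pass the threshold of 0.05. The smallest 2-sided p that an exact permutation test of 2 mice against 2 can reach is 0.333, and the adjusted p-values that follow are therefore those of models fitted across all genes.

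Ccl2, the main monocyte attractant of the family, was the member that edgeR called higher in PRMT1Cx3cr1-KO microglia, and Ccl6 was the member called lower. Ccl24 and Ccl7 had larger log2 fold changes (1.20 and 1.16) and Ccl9 was lower (-0.55), but these did not pass in edgeR. Ccl2 stood at 45.1 and 42.5 CPM in the PRMT1FL mice and at 86.8 and 85.5 CPM in the PRMT1Cx3cr1-KO mice. The mice of a genotype lay close together, at 43.8 ± 1.78 CPM and 86.1 ± 0.929 CPM (mean ± SD, n = 2 each), and the genotypes did not overlap. The log2 fold change was 0.90 (SE 0.07, adjusted p = 0.0184 from edgeR). The share of microglia with at least 1 UMI of Ccl2 was 12.7 and 13.1% in the PRMT1FL mice, against 21.7 and 21.5% in the PRMT1Cx3cr1-KO mice. In oligodendrocyte-like cells, which were few, the share was 7.41% of 27 cells in PRMT1FL mouse 1, with no UMI in 19 cells of PRMT1FL mouse 2 and 8 cells of PRMT1Cx3cr1-KO mouse 1, which allows shares of up to 15.8% and 37.5%. In astrocyte-like cells the share was 2.03% in PRMT1FL mouse 1 and 2.17% in PRMT1Cx3cr1-KO mouse 1, and no UMI was found in 126 cells of PRMT1FL mouse 2 and 30 cells of PRMT1Cx3cr1-KO mouse 2, which allows shares of up to 2.38% and 10%. Astrocytes can make Ccl2 after injury, so neither share fixes the level that free RNA gives. Median depth was 5455.5 to 6537 UMIs in oligodendrocyte-like cells, 1620.5 to 2819 UMIs in astrocyte-like cells and 6231 to 7068 UMIs in microglia. After each cell had been thinned to 1000 UMIs, the microglial shares were 3.33 and 2.84% against 5.78 and 5.68%.

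The call for Ccl2 depended on which mice were kept. With PRMT1FL mouse 1 left out the log2 fold change was 0.94 (edgeR adjusted p = 0.342), and with PRMT1FL mouse 2 left out it was 0.86 (edgeR adjusted p = 0.473). Leaving out PRMT1Cx3cr1-KO mouse 1 gave 0.87 (edgeR adjusted p = 4.65e-06), and leaving out PRMT1Cx3cr1-KO mouse 2 gave 0.94 (edgeR adjusted p = 6.35e-06). The size therefore moved little, and the threshold was missed whenever a PRMT1FL mouse was left out. With either PRMT1FL mouse left out, edgeR called 4 genes in all, each of them lower in PRMT1Cx3cr1-KO mice. In the 10 alternatives that kept all 4 mice the log2 fold change of Ccl2 was 0.83 to 1.02, with adjusted p of at most 0.0199 in each.

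Of the 9 members, 2 were called, Ccl2 and Ccl6, against 0.455% of the 13858 genes tested. DESeq2 called 5 of the 9, namely Ccl2, Ccl6, Ccl7, Ccl9 and Ccl24, among 705 genes in all. The median log2 fold change over the members was -0.03, and over all genes tested it was -0.00. Both PRMT1Cx3cr1-KO mice lay above both PRMT1FL mice for Ccl2, Ccl7, Ccl12 and Ccl24 and below them for Ccl3, Ccl6 and Ccl9. That is 7 of 9 members without overlap, against 56% of all genes tested (38.6% above and 17.4% below). The members thus did not move one way, and their number without overlap is not read as a result.

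**Figure D1:**
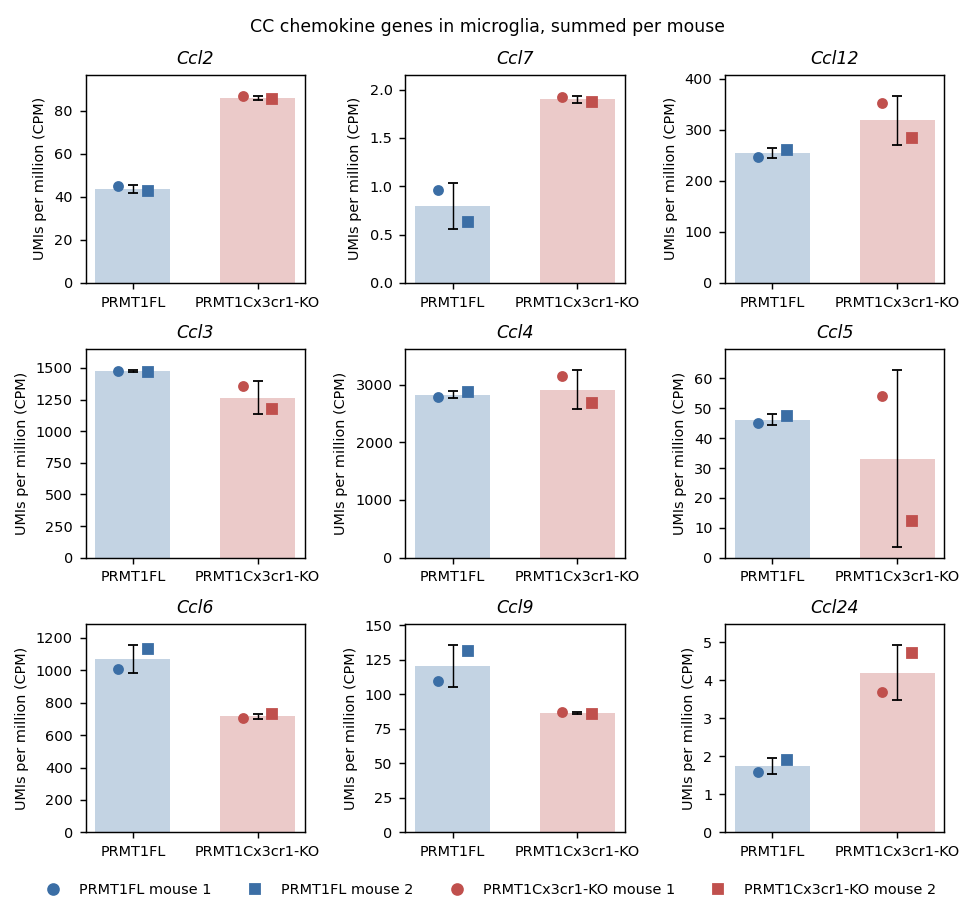
Levels of the 9 members in microglia, in CPM on linear axes from 0, with 1 point per mouse, bars for the mean of a genotype and error bars for the SD (n = 2). Ccl2 stands near 44 CPM in PRMT1FL mice and near 86 CPM in PRMT1Cx3cr1-KO mice, Ccl6 is lower in both PRMT1Cx3cr1-KO mice, and Ccl5 has 1 PRMT1Cx3cr1-KO mouse far below the other 3.

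Among the ligands of Ccr2, Ccl7 and Ccl12 lay on the same side as their neighbour Ccl2. Ccl7 was sparse, with 85 and 46 UMIs in the microglia of the PRMT1FL mice and 157 and 175 in those of the PRMT1Cx3cr1-KO mice. Its level was 0.965 and 0.631 CPM against 1.93 and 1.87 CPM (log2 fold change 1.16, SE 0.23, adjusted p = 0.0908 from edgeR). Ccl12 was 247 and 261 CPM in PRMT1FL mice and 352 and 284 CPM in PRMT1Cx3cr1-KO mice, a difference of 0.26 (SE 0.12, adjusted p = 0.310 from edgeR). For Ccl12 the 2 PRMT1Cx3cr1-KO mice differed from each other by more than PRMT1Cx3cr1-KO mouse 2 differed from the PRMT1FL mice. Neither gene passed the threshold.

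Of Ccl3, Ccl4 and Ccl5, none passed. Ccl3 was 1479 and 1472 CPM in PRMT1FL mice and 1356 and 1172 CPM in PRMT1Cx3cr1-KO mice (log2 fold change -0.29, SE 0.10, adjusted p = 0.204 from edgeR). Ccl4 was 2786 and 2870 CPM against 3148 and 2677 CPM (-0.03, SE 0.11, adjusted p = 0.916), with the PRMT1FL mice inside the range of the others. Ccl5, also an attractant of T cells, was 44.95 and 47.6 CPM in PRMT1FL mice, 54.1 CPM in PRMT1Cx3cr1-KO mouse 1 and 12.3 CPM in PRMT1Cx3cr1-KO mouse 2. One library therefore decided its value, since the log2 fold change was -0.54 (SE 0.60, adjusted p = 0.658 from edgeR) with all mice and became -2.005 or 0.18 when PRMT1Cx3cr1-KO mouse 1 or mouse 2 was left out. The same mouse had the lowest summed level of 10 interferon-responsive genes in microglia, at 299 CPM against 460, 464 and 533 CPM in the others, and the part of that difference in Ccl5 was not tested.

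Both ligands of Ccr1 that are particular to rodents were lower in PRMT1Cx3cr1-KO mice. Ccl6 was 1010 and 1130 CPM in PRMT1FL mice and 705 and 728 CPM in PRMT1Cx3cr1-KO mice, and it fell by 0.65 on the log2 scale (SE 0.08, adjusted p = 0.0474 from edgeR). Without PRMT1FL mouse 1 or mouse 2 the value was -0.73 or -0.57, and neither passed. Ccl9 was 109.8 and 131 CPM against 86.9 and 85.9 CPM (log2 fold change -0.55, SE 0.09, adjusted p = 0.0777 from edgeR), which did not pass. Haemoglobin and other erythroid RNA moved with the genotype as well, at 242 and 94.1 CPM in microglia of PRMT1FL mice and 0.0613 and 0.0214 CPM in those of PRMT1Cx3cr1-KO mice over 5 listed genes. In interferon-like microglia (93 to 208 cells per mouse), where that list stood at 2.01, 0.709, 0 and 0 CPM, Ccl6 was 781 and 796 CPM against 458 and 449 CPM. Neutrophil-like cells, in which Ccl6 was also found, occurred in the PRMT1FL mice only (23 and 46 cells), and in the microglial sums 6 neutrophil markers stood at 139 and 198 CPM against 132 and 196 CPM. The part of erythroid and neutrophil RNA in the values of Ccl6 and Ccl9 was not tested.

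Ccl24, an attractant of eosinophils, was higher in both PRMT1Cx3cr1-KO mice from low counts. It had 140 and 138 UMIs in PRMT1FL microglia and 301 and 441 UMIs in PRMT1Cx3cr1-KO microglia, or 1.59 and 1.89 CPM against 3.69 and 4.71 CPM. The difference was 1.20 (SE 0.17, adjusted p = 0.0547 from edgeR), which narrowly missed the threshold. Markers of border-associated macrophages (8 genes such as Mrc1, F13a1 and Pf4, all of them detected) were also higher in the microglial sums of PRMT1Cx3cr1-KO mice. They stood at 33.2 and 33.0 CPM in PRMT1FL mice and 60.9 and 160 CPM in PRMT1Cx3cr1-KO mice. Their part in the values of Ccl24 and Ccl7 was not tested.

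The next question was which microglia held each transcript. Cells were clustered without any chemokine gene and without 1197 genes picked for a possible difference between genotypes. The rule for these was an unadjusted edgeR p under 0.05 and more than 2-fold in sums over all cells, not an adjusted p. In this clustering, 8 microglial clusters had at least 20 cells in every mouse. The D/E-like, C1/C2-like, interferon-like and A1-like clusters (A1-like 1 and A1-like 2, of proliferating cells) carry names from marker lists, and the others go by number. Cluster 0 was led by Gpnmb, Cd5l and Baiap2l2, and cluster 2 by Cxcl2, Ptgs2 and Il12b. Over all mice together, cluster 4 was led by haemoglobin genes and Lgals3, with Ccl6 also among its leading genes. Haemoglobin RNA was nearly absent from PRMT1Cx3cr1-KO microglia, of which cluster 4 held 1246 and 1585 cells. Haemoglobin therefore does not describe the cluster in those mice. Interferon-like cells (led by Rsad2, Ifit3 and Ifit2) made up 0.873 to 1.95% of the microglia of a mouse, in 93 to 208 cells. Levels in a cluster against the remaining microglia are descriptions, with no test.

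**Figure D2:**
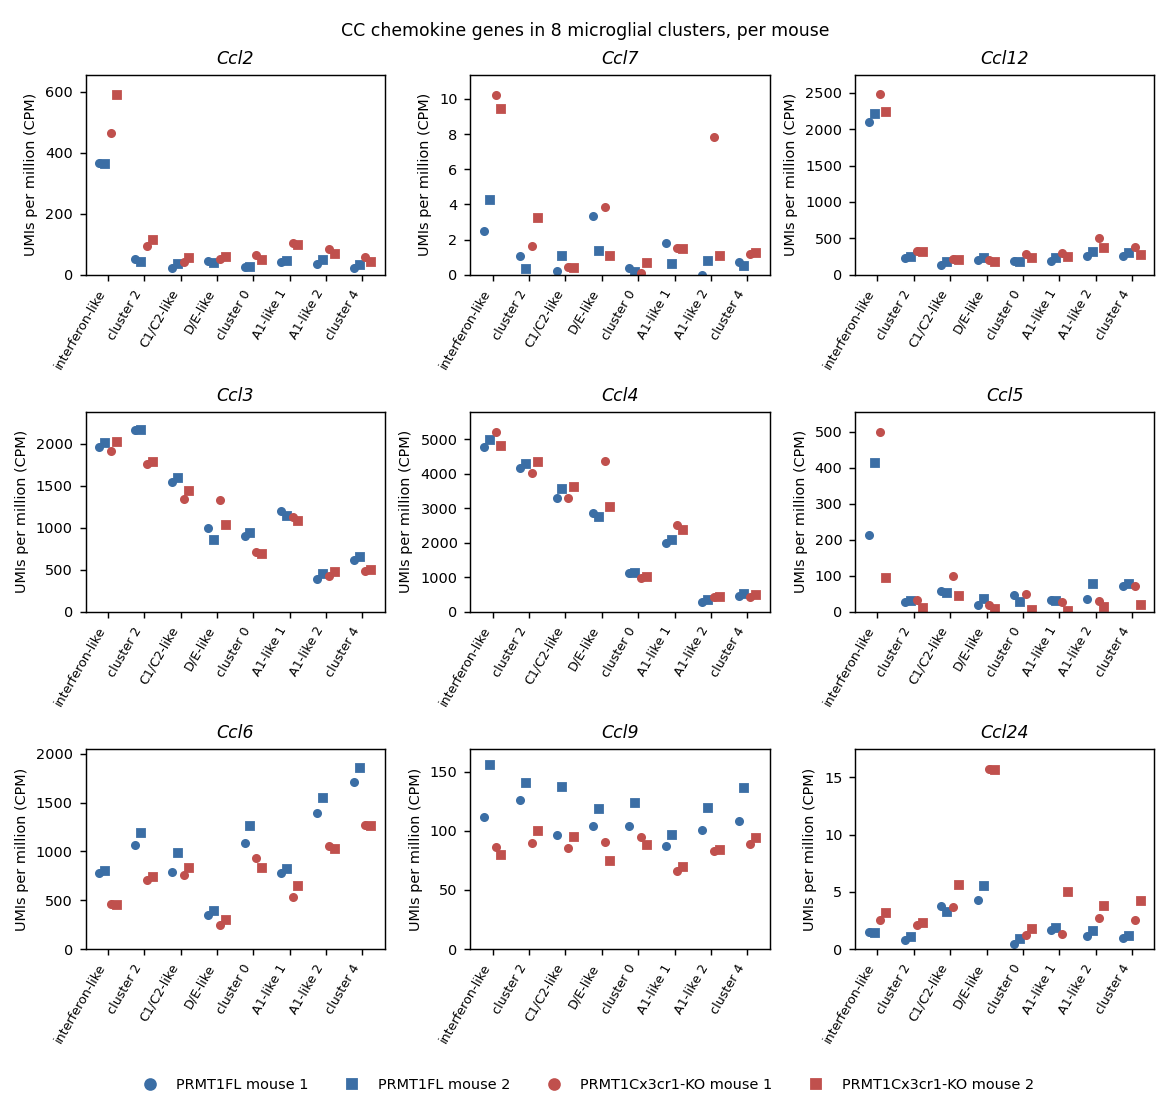
Levels of the 9 members in the 8 microglial clusters, in CPM on linear axes from 0, with 1 point per mouse. Ccl2, Ccl5 and Ccl12 are highest in interferon-like cells, Ccl6 in cluster 4 and Ccl24 in D/E-like cells, and Ccl9 is nearly level.

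Ccl2, Ccl12 and Ccl5 shared a source in interferon-like microglia. Ccl2 was 367 and 362 CPM there in PRMT1FL mice and 463 and 590.2 CPM in PRMT1Cx3cr1-KO mice, against 37.6, 36.2, 77.5 and 80.3 CPM in the other microglia. The log2 ratio was 3.02 ± 0.35 (mean ± SD, n = 4 mice), and every mouse had its highest Ccl2 in this cluster. Ccl12 was 2103, 2202, 2477 and 2231 CPM there, with log2 ratios of 3.36, 3.31, 3.05 and 3.08 in the same order of mice (3.20 ± 0.16). Ccl5 was 213, 413, 499.6 and 95.4 CPM in the same cells, with a log2 ratio of 3.08 ± 0.51. Ccl7 had its highest mean level in the same cells (log2 ratio 2.41 ± 0.61), from at most 20 UMIs in a mouse, and in PRMT1FL mouse 1 it was higher in D/E-like cells (3.32 against 2.52 CPM).

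Most Ccl2 was nevertheless found outside that cluster. Interferon-like cells held 7.04 to 18.4% of the microglial UMIs of Ccl2, 8.01 to 19.2% of those of Ccl12 and 7.91 to 22.2% of those of Ccl5, against 1.02 to 2.40% of the UMIs of all genes. The counts were concentrated in few cells. The 1% of microglia richest in Ccl2 held 29.0 to 42.6% of its UMIs over the mice, with up to 88 UMIs in a single cell. For Ccl5 the richest 1% held 64.0 to 79.4%, whereas for Ccl3 they held 9.24 to 11.1%.

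Ccl3 and Ccl4, the macrophage inflammatory proteins, were spread more widely. Ccl3 was 1958, 2006, 1916 and 2022 CPM in interferon-like cells (PRMT1FL mice 1 and 2, then PRMT1Cx3cr1-KO mice 1 and 2) and 2155, 2155, 1762 and 1782 CPM in cluster 2, so neither cluster was above the other in all mice. Its log2 ratio of interferon-like cells to other microglia was 0.55 ± 0.17 (n = 4). Ccl4 was 4757, 4963, 5218 and 4796 CPM in interferon-like cells, a log2 ratio of 0.80 ± 0.04. Both were low in the A1-like 2 cluster of proliferating cells, where Ccl3 had its lowest level in each mouse. Ccl4 was 281, 345, 439 and 433 CPM there and 472, 518, 420.4 and 482 CPM in cluster 4, which was the lower of these clusters in PRMT1Cx3cr1-KO mouse 1 only.

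Ccl6, Ccl9 and Ccl24 followed other clusters. Ccl6 was highest in cluster 4, at 1711 and 1855 CPM in PRMT1FL mice and 1271 and 1260 CPM in PRMT1Cx3cr1-KO mice. Its log2 ratio there was 0.87 ± 0.05, and it was lowest in D/E-like cells, at 347, 386, 245 and 303 CPM. Ccl9 was close to even, and cluster 2, the highest by the mean of the mice, exceeded the other microglia by a log2 ratio of 0.22 ± 0.12. In PRMT1FL mouse 2 Ccl9 was higher in interferon-like cells (155 against 140.4 CPM in cluster 2) and in PRMT1Cx3cr1-KO mouse 1 in cluster 0 (95.1 against 89.9 CPM). Ccl24 was highest in D/E-like cells (led by Gdf15, Crybb1 and Pdlim4, with P2ry12 among the leading genes), at 4.31 and 5.55 CPM in PRMT1FL mice and 15.7 and 15.6 CPM in PRMT1Cx3cr1-KO mice. Its log2 ratio to the other microglia was 2.17 ± 0.55. The markers of border-associated macrophages were lowest of the 8 clusters in D/E-like cells in every mouse. They stood there at 11.1 and 14.8 CPM in PRMT1FL mice and 26.1 and 64.1 CPM in PRMT1Cx3cr1-KO mice. B1-like microglia lay outside the 8 clusters, with 23 and 5 cells in PRMT1FL mice 1 and 2 and 67 and 416 cells in PRMT1Cx3cr1-KO mice 1 and 2. In PRMT1FL mice 1 and 2, then PRMT1Cx3cr1-KO mice 1 and 2, their Ccl6 was 219, 0, 48.1 and 80.1 CPM. In the same order their Ccl9 was 46.0, 0, 8.48 and 8.90 CPM and their Ccl3 was 978, 525, 263 and 248 CPM. These levels rest on few counts, with 4, 0, 3 and 21 UMIs of Ccl9 and 19, 0, 17 and 189 UMIs of Ccl6. Ccl3 had 85, 13, 93 and 584 UMIs, and no difference between genotypes is read from these cells.

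The genotypes were then compared inside each cluster. Ccl2 was higher in each PRMT1Cx3cr1-KO mouse than in either PRMT1FL mouse in 8 of 8 clusters, which 1.13% of the 12199 genes tested also showed. In cluster 0 it was 25.8 and 24.1 CPM against 64.3 and 48.6 CPM, and in cluster 2 it was 53.3 and 43.1 CPM against 92.8 and 115 CPM. The effect, as a log2 fold change from limma's voom with the mouse as a random block, was 0.43 in interferon-like cells and 1.19 in the A1-like 1 cluster, with the other clusters between. It passed within cluster 0 (1.07, SE 0.19, adjusted p = 0.000996 from limma), cluster 2 (1.01, SE 0.14, adjusted p = 2.45e-05) and the A1-like 1 cluster (1.19, SE 0.21, adjusted p = 0.00225), where 6%, 10.2% and 1.64% of genes passed. Ccl24 shared with Ccl2 an effect above 0 in all 8 clusters, as 7.32% of genes did. No cluster's effect on Ccl2 differed from that of the others at adjusted p under 0.05, with the lowest adjusted p at 0.224 from limma in D/E-like cells. That contrast called 0 of 12199 genes in interferon-like cells, cluster 0 and cluster 4, so it could hardly show a difference there. Ccl2 thus lay higher in PRMT1Cx3cr1-KO mice in all 8 clusters, and the effect passed in 3 of them. Both sums that follow were chosen after seeing the data. With interferon-like cells left out, the log2 fold change of Ccl2 was 1.02. Without B1-like cells (led by Ms4a7 and Clec12a), of which the PRMT1FL mice had 23 and 5 and the PRMT1Cx3cr1-KO mice 67 and 416, it was 0.91.

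Ccl9 and Ccl6 were low in most clusters. Ccl9 lay below in both PRMT1Cx3cr1-KO mice in 8 of 8 clusters and Ccl6 in 7 of 8, and 3.12% of genes lay below in at least 6. The effects on Ccl9 were -0.67 to -0.37 and those on Ccl6 -0.83 to -0.16, and each gene's effect was below 0 in every cluster, as for 5.25% of all genes. Ccl24 lay above in 6 of 8 clusters, Ccl12 in 6 and Ccl7 in 4. Over all gene and cluster pairs, 26.9% lay above and 18.4% below. Within clusters, 21 of the 72 effects on members passed, 8 of them up and 13 down, against 6.25% of all gene and cluster pairs. Ccl6 passed in 6 clusters, among them interferon-like cells (-0.83, SE 0.14, adjusted p = 0.0114 from limma), where 0.0492% of genes passed, and Ccl9 passed in 4. In cluster 4, Ccl3, Ccl6 and Ccl9 passed, all lower, against 2.7% of genes. In D/E-like cells, where 28.6% of genes passed, Ccl3, Ccl4 and Ccl24 were higher and Ccl6 and Ccl9 lower. In C1/C2-like and A1-like 2 cells limma called 0 members, against 0.795 and 0.0328% of genes.

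**Figure D3:**
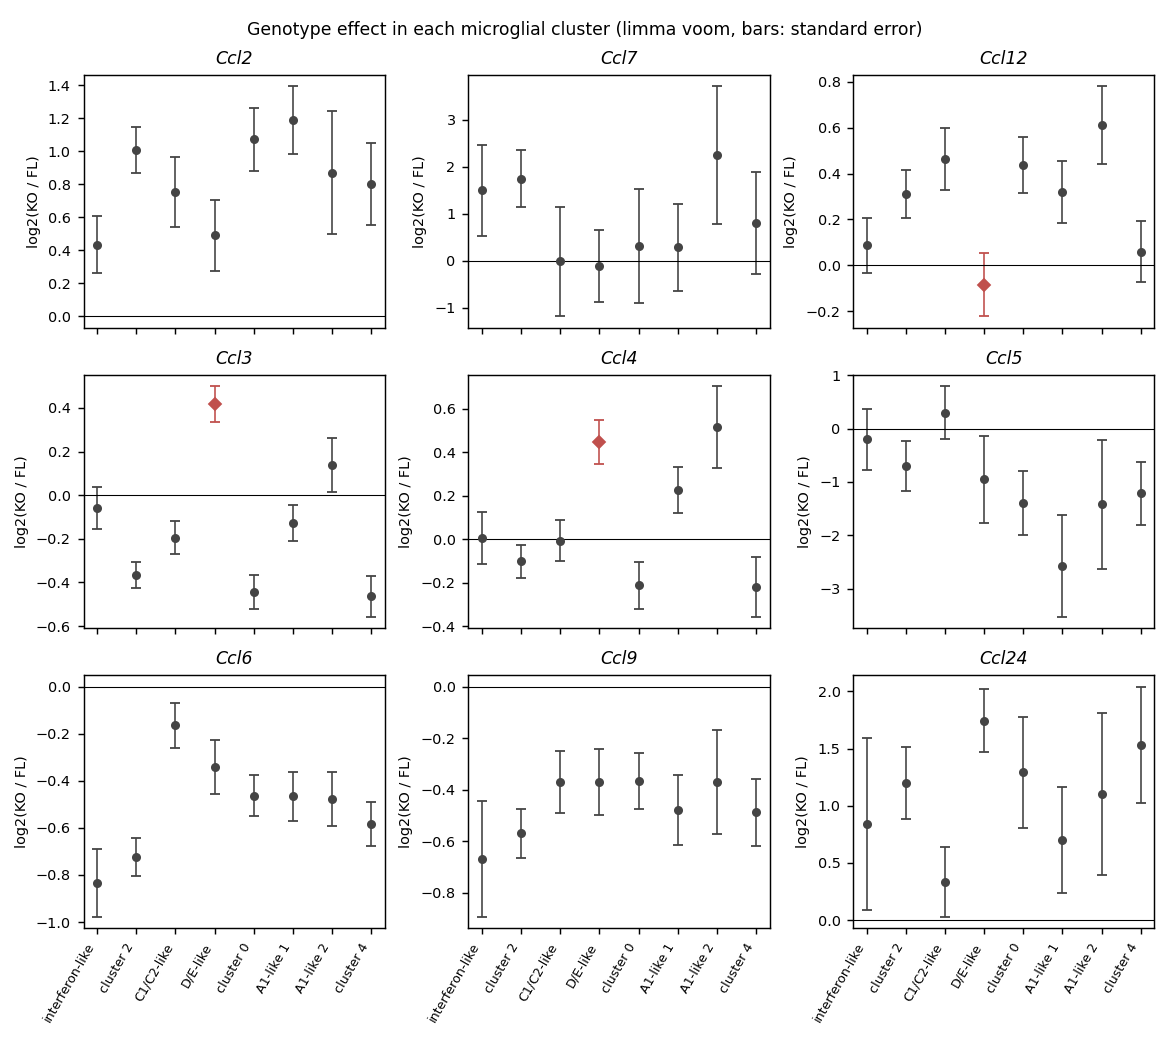
Genotype effect on each member in each of 8 microglial clusters, as the log2 fold change of PRMT1Cx3cr1-KO (KO) over PRMT1FL (FL) from limma, with bars for the standard error. Red diamonds mark the 3 effects that differ from the mean of the other clusters at adjusted p under 0.05, those on Ccl3, Ccl4 and Ccl12 in D/E-like cells, and Ccl2 lies above 0 and Ccl6 and Ccl9 below 0 in every cluster.

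In D/E-like cells the genotype effect on some members differed from that in the other clusters, as it did for many genes. A difference was called for 3 of 72 pairs of member and cluster, against 2.81% of all pairs of gene and cluster. Each of the 3 lay in D/E-like cells, where 21.5% of all genes differed. Their number is therefore not read as a result about the members. The share of genes that differed was 0.402% in C1/C2-like cells, 0.369 and 0.0738% in the A1-like 1 and A1-like 2 clusters, 0.0984% in cluster 2 and 0% in the remaining 3. Ccl3 in D/E-like cells was 1002 and 853 CPM in PRMT1FL mice and 1328 and 1037 CPM in PRMT1Cx3cr1-KO mice, an effect of 0.42. Its effect was -0.44 in cluster 0, -0.36 in cluster 2 and -0.46, its lowest, in cluster 4. The effect on Ccl3 was above 0 in 2 of the 8 clusters. In interferon-like cells Ccl3 was nearly level, at 1958 and 2006 CPM against 1916 and 2022 CPM. The difference from the mean of the other clusters was 0.63 (SE 0.08, adjusted p = 2.56e-06 from limma). Ccl4 in D/E-like cells was 2851 and 2742 CPM against 4354 and 3030 CPM, an effect of 0.45 and a difference of 0.42 (SE 0.10, adjusted p = 0.00388 from limma). The effect on Ccl4 was above 0 in 4 of the 8 clusters and ran from -0.22 to 0.51, so D/E-like cells did not have the largest. Both PRMT1Cx3cr1-KO mice lay above both PRMT1FL mice for Ccl4 in 3 clusters and below them in 1. Ccl12 in D/E-like cells was 203 and 227 CPM against 209 and 177 CPM, an effect of -0.08 and a difference of -0.41 (SE 0.14, adjusted p = 0.0300 from limma).

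The difference for Ccl3 passed whichever mouse was left out, at 0.45 to 0.83. That for Ccl4 was lost without PRMT1FL mouse 1 (0.50), PRMT1FL mouse 2 (0.36) or PRMT1Cx3cr1-KO mouse 1 (0.16), and that for Ccl12 was lost without PRMT1FL mouse 1 (-0.41) or mouse 2 (-0.41). Within D/E-like cells the summed level of 20 genes of the NF-kB pathway and its targets was 5377 and 4950 CPM in PRMT1FL mice and 10370 and 7297 CPM in PRMT1Cx3cr1-KO mice. Immediate early and heat shock genes stood at 24343 and 20316 CPM against 23439 and 16626 CPM in the same cells, and at 8356 to 11452 CPM in all microglia. Marker lists of the paper's clusters also differed between genotypes inside D/E-like cells. The 4 homeostatic genes of its cluster D stood at 4659 and 4691 CPM against 2533 and 2101 CPM. The 4 genes of its cluster E stood at 3588 and 3555 CPM against 5665 and 5097 CPM. They include Nfkbia, which is also in the NF-kB list, so these values are not independent. The 7 genes of the B1 list are the paper's Spp1, Cybb, Apoe and Cd38, with Ms4a7, Clec12a and Gpnmb added here. They stood at 12123 and 11306 CPM against 25854 and 30241 CPM. A changed mix of states and a change within 1 state were thus not told apart. D/E-like cells were shallow, with median depths of 3095, 3614, 3287.5 and 3897 UMIs, and 2.30, 2.57, 4.12 and 4.86% of them were marked as doublets. The part of these measures in the differences was not tested.

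To see which genes shared cells with Ccl2 without recourse to clusters, microglia with a UMI of Ccl2 were set against those without, after thinning to 1000 UMIs. Such cells numbered 353 and 214 in the PRMT1FL mice, against 562 and 579 in the PRMT1Cx3cr1-KO mice. Ccl12 was 1028, 1196, 1233 and 827 CPM in cells with Ccl2 and 217, 251, 315 and 250.03 CPM in cells without it. The log2 ratio was 2.05 ± 0.25 (mean ± SD, n = 4 mice) and lay at 1.73 or above in every mouse. It was 0.94 ± 0.28 for Ccl4, 0.82 ± 0.24 for Ccl3 and 0.95 ± 0.49 for Ccl5. Ccl9 was at 0.21 ± 0.15 and Ccl6 at -0.11 ± 0.24, the latter with mice on either side of 0. Ccl7 and Ccl24 had at most 8 UMIs in these cells in any mouse, and no ratio is read from them.

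**Figure D4:**
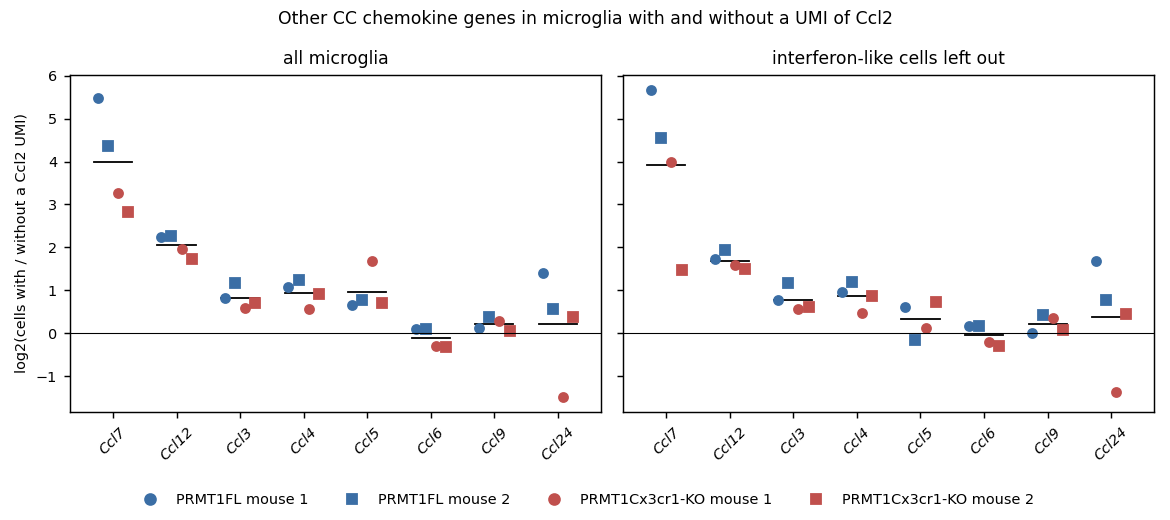
Log2 ratio of CPM between microglia that had a UMI of Ccl2 and those that had none, at 1000 UMIs per cell, for the other members, with 1 point per mouse and a line at the mean of the 4 mice, for all microglia (left) and without interferon-like cells (right). Ccl12 stays far above 0 in both, at 2.05 and 1.69, while Ccl5 drops from 0.95 to 0.33, and the scattered points of Ccl7 and Ccl24 rest on few UMIs.

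Leaving out interferon-like cells lowered the ratio of Ccl5 to 0.33 and that of Ccl12 to 1.69, while those of Ccl3 and Ccl4 were 0.78 and 0.88. Cells with Ccl2 had more interferon-responsive RNA (log2 ratio 1.75 over 10 listed genes, mean of 4 mice), with a smaller ratio for NF-kB genes (0.38) and for immediate early and heat shock genes (0.09). Cells with Ccl4 showed another order, at 0.82 for immediate early and heat shock genes, 1.28 for NF-kB genes and 0.33 for interferon-responsive genes. Ccl3 and Ccl4 also shared cells with each other, with a log2 ratio of Ccl4 of 2.41 in cells with Ccl3. Ccl6 and immediate early genes were apart, with a ratio of -0.50 in cells with Ccl6. Cells with a UMI of Ccl2 were also deeper, with a median of 10725 UMIs in PRMT1FL mouse 1 where the cells lacking Ccl2 had 5766, and thinning sets only this depth equal.

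Over 8214 genes with enough UMIs, the 10 most like Ccl2 by their lowest ratio over the 4 mice were Ifit1 (2.65), Ifit3 (2.18), Ifit3b (2.12), Rsad2 (2.10), Ifit2 (1.85), Ccl12 (1.73), Cd69 (1.66), Cxcl10 (1.61), Ifi211 (1.46) and Isg15 (1.32). Most of these are known as interferon-induced genes, and the activation marker Cd69 was also among the leading genes of the interferon-like cluster. For Ccl12 the first 5 were Ifit1, Ccl2, Ifit3b, Rsad2 and Ifit3, and for Ccl5 they were Cxcl9, Gbp2, Rsad2, C3 and Irf7. For Ccl3 they were Ccl4, Tnfsf9, Il12b, Cxcl2 and Tnf, and for Ccl4 Il12b, Tnfsf9, Ccl3, Cxcl2 and Tnf. For Ccl6 they were Il4i1, Lgi2, Klrb1b, Pacsin1 and Tsc22d1. The lists of Ccl7 and Ccl24 rest on few cells and are not given.

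The promoter windows of members and of the genes that kept them company are shown because Ccl2 and Ccl12 shared cells with interferon-induced genes and Ccl3 and Ccl4 with Cxcl2. Sequences are the 250 bases before the RefSeq start in GRCm38.p6, 5′ to 3′ on the strand of the gene, with matches in capitals. The motifs searched on both strands were the core of an interferon-stimulated response element (GAAA, any 2 bases, GAAA; in 2.98% of 32851 windows), a kappaB site (GGG, any 3 bases, TTCC; in 4.65%) and TATAAA (in 12.4%). Entries were found for Ccl3, Ccl6, Ccl9 and Ccl12, and Ccl2, Ccl4, Ccl5, Ccl7 and Ccl24 are named only. Ccl12 lies at chr11:82101595-82101844 (plus strand) with 1 TATAAA match, which starts 31 bases before the gene. Ccl9 lies at chr11:83578637-83578886 (minus strand) with 1 kappaB and 3 TATAAA matches, of which 2 overlap. Ifit3 lies at chr19:34583279-34583528 (plus strand) with 2 response element cores, and Cxcl2 at chr5:90903649-90903898 (plus strand) with 3 kappaB matches, of which 2 overlap.
Ccl12: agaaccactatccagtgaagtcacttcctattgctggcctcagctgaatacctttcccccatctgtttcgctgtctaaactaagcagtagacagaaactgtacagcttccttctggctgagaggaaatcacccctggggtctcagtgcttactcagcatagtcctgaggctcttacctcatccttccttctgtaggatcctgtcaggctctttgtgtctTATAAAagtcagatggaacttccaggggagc
Ccl9: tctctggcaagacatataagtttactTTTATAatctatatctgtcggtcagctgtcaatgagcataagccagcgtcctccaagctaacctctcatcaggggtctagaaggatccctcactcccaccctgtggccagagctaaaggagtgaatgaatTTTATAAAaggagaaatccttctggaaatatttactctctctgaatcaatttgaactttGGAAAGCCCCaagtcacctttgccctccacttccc
Ifit3: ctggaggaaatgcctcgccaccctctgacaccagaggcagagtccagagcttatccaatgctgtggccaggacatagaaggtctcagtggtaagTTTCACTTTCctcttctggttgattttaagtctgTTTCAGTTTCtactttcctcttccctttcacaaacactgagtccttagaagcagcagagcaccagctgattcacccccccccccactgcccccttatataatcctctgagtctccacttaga
Cxcl2: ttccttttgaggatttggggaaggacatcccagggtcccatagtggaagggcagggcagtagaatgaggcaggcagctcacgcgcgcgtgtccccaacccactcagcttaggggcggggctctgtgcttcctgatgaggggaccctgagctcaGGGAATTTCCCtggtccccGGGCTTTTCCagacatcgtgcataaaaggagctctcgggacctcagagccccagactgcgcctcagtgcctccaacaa
The windows of Ccl3 and Ccl6 held none of the motifs. Among the other genes most like Ccl3 and Ccl4, the windows of Il12b and Tnf held no kappaB match, and Tnfsf9 had no entry. The kappaB matches of Cxcl2 therefore do not stand for that group of genes. Of the 10 genes most like Ccl2, 9 had an entry, and 7 of these held the response element core, 2 a kappaB match and 2 a TATAAA match. A match describes letters in a window and does not show binding, and an absent match says nothing of sites elsewhere.

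The receptors and other chemokines complete the system. Of 15 listed CC receptor genes, 8 were tested and 1 was called, Ccr1, against 0.455% of all genes tested. Ccr1, the receptor of Ccl3, Ccl6 and Ccl9, was 6.80 and 6.89 CPM in PRMT1FL mice and 12.8 and 17.1 CPM in PRMT1Cx3cr1-KO mice (log2 fold change 1.05, SE 0.13, adjusted p = 0.0438 from edgeR). Ccr2, the receptor of Ccl2, was 1.35 and 2.36 CPM against 2.04 and 2.74 CPM (0.30, SE 0.28, adjusted p = 0.603 from edgeR). The level of Ccr2 in microglia was thus low in all mice and did not separate the genotypes. Of 12 other CC ligands 2 were tested, and edgeR called 0 (1 at an unadjusted p under 0.05, and 0 by DESeq2). Over all 13858 genes tested, edgeR called 63, 2740 had an unadjusted p under 0.05, and DESeq2 called 705.

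Of 15 other chemokines, 9 were tested and edgeR called 0, with 6 at an unadjusted p under 0.05 and 2 called by DESeq2. These counts and those of the lists that follow stand against 2740 and 705 of all 13858 genes tested. Their median log2 fold change was 0.53, and 7 of the 9 were above 0. Cxcl2, an attractant of neutrophils, was 269.8 and 188 CPM against 459.6 and 464 CPM (0.94, SE 0.16, adjusted p = 0.0794 from edgeR). Among 20 NF-kB genes edgeR called 0 (2 at an unadjusted p under 0.05, 0 by DESeq2), with a median of 0.14. Among 14 immediate early and heat shock genes it called 0 (3 unadjusted, 1 by DESeq2), and their summed level overlapped between genotypes, at 10200 and 9912 CPM against 11452 and 8356 CPM. Among 10 interferon-responsive genes it called 0 (0 unadjusted, 0 by DESeq2), with a median of -0.30, although these were the genes that shared cells with Ccl2.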

How the data were processed

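Cell Ranger 3.1.0 was run by the authors against mm10, and the UMI counts per gene and barcode were deposited raw, with 1 library per mouse. The submitters' processing notes also name Seurat 3.2.0 and Scanpy 1.5.2. Cells were kept from 200 to 6000 genes and with mitochondrial UMIs up to 10%, the limits in the methods of the study. Doublet scores marked 6.44 to 8.90% of the cells of a mouse when thresholded at the expected rate of 0.8% per 1000 cells, and marked cells were kept because the study names no doublet step; the automatic threshold had marked at most 0.0490%. Pairs of libraries shared 31 to 46 cell barcodes.

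Counts were log transformed after scaling, reduced to 20 principal components of 2000 variable genes with 15 neighbours, and clustered with Leiden at resolution 0.4 (scanpy 1.11.5, leidenalg 0.10.2). 46 chemokine genes and the 1197 genes picked by unadjusted p and fold difference between genotypes took no part. A name ending in -like rests on marker genes only. B1-like cells, 5 to 416 per mouse, stayed in the microglial sums and were too few for comparison as a cluster. UMIs were summed per mouse over microglial clusters and tested with edgeR 4.0.16 (TMM normalization, filterByExpr, quasi-likelihood F test, Benjamini-Hochberg over all genes, threshold 0.05). Sums per mouse and cluster were tested with limma 3.58.1 (voom, mouse as random block); clusters of a mouse are not independent replicates. DESeq2 1.42.0 was an alternative. Ratios added 0.5 UMI to each sum, and thinning drew 1000 UMIs per cell without replacement, leaving out shallower cells (7539 to 10591 kept per mouse). Genes most like a member were ranked by the lowest ratio over the mice, among genes with at least 50 UMIs in each. All 9 members were named, and other listed genes only if called or with at least 100 UMIs in every mouse. The tests and ratios were tested on simulated data. A few values are not reported here. The members, lists and tests were chosen with earlier results of these data known. No source used here gives litters or sort days, so a batch and a mouse cannot be told apart. Limits at a count of 0 cover counting error only. The deposited tables hold counts per gene and not per exon, so intact and recombined Prmt1 transcripts were not separated. The antisense genes that overlap Ccl2 (Gm17268) and Ccl6 (E230016K23Rik) had 0 and at most 31 UMIs in a mouse.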

Additional observations from a re-analysis of the deposited data

Results flagged for a closer look

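The effect of the genotype differed between microglial clusters for 3 members, each time between D/E-like cells and the mean of the other clusters, by the contrast in limma. The difference in log2 fold change was 0.63 for Ccl3 and 0.42 for Ccl4, both higher in D/E-like cells, and -0.41 for Ccl12, lower there. In the same comparison 21.5% of all genes differed, so a departure of D/E-like cells was common to many genes. Marker lists of microglial states also differed between genotypes inside this cluster, and their part in the differences was not tested. The fold changes of Ccl3 and Ccl4 in D/E-like cells were 0.42 and 0.45, so both lay above 0 there, while Ccl12 lay at -0.08. A rise was not particular to D/E-like cells, since the effect was above 0 in 2 of 8 clusters for Ccl3 and 4 of 8 for Ccl4. For Ccl4 it reached 0.51 in another cluster.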

How the results depend on the processing

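Of 252 alternative values, 193 kept their direction and side of the threshold or stayed within the spread, 10 lost a call, 24 gained one, 20 moved and 5 turned direction. The number of members called, 2 of 9, became 5 with DESeq2, 6 without a filter on low counts, 4 over all cells that passed the filters and 6 with the cluster as a term in limma, and 0 to 7 when 1 mouse was left out (0 without PRMT1FL mouse 1 or mouse 2, 7 and 6 without PRMT1Cx3cr1-KO mouse 1 and mouse 2). All genes called, 63, became 705, 1656, 749 and 1230 under these settings, 4 without either PRMT1FL mouse, and 2567 and 914 without PRMT1Cx3cr1-KO mouse 1 and mouse 2. The log2 fold change of Ccl2 was 0.86 to 0.94 with 1 mouse left out. Directions turned for Ccl4, which ranged from -0.17 to 0.11 with 1 mouse left out (the latter without PRMT1Cx3cr1-KO mouse 2) and was 0.020 over all cells, 0.00118 without doublet-marked cells and 0.081 with the cluster as a term, and for Ccl5, which ranged from -2.005 to 0.18, the latter without PRMT1Cx3cr1-KO mouse 2. The cause was not tested.

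Whether the replicate numbers pair the mice was not settled. The deviations of same-numbered mice from the mean of their genotype correlated at 0.0838 over 7196 genes. With 2 mice per genotype the deviations are mirror images, so both pairs give this same value and it cannot decide. With the replicate number as a block, 4 members and 281 genes were called, against 2 and 63 without it. Pairs of member and cluster whose effect differed, 3, became 5 without doublet-marked cells, 5 without immediate early and heat shock genes in the clustering, and 1 to 5 with 1 mouse left out. The difference for Ccl4 in D/E-like cells fell to 0.16 with another clustering seed and did not pass. The median log2 ratio of the other members in cells with Ccl2, 0.88, was 0.43 without thinning and, in an alternative chosen after seeing the data, 0.58 without interferon-like cells. The ratio of Ccl4 in interferon-like cells, 0.80, was 0.72 with another clustering seed and 0.64 without immediate early and heat shock genes in the clustering, and that of Ccl9 in cluster 2, 0.22, was 0.39 in the latter. Leaving interferon-like or B1-like cells out of the sums, also chosen after seeing the data, gave 1.02 and 0.91 for Ccl2. Depth limits Ccl7 and Ccl24 most, and with 2 mice per genotype small differences could not be resolved.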

Other observations

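Outside the microglia, the ligands that were sparse in microglia were far higher in border-associated macrophage-like cells (F-like 1, 78 to 144 cells per mouse, led by H2-Eb1, H2-Aa and Mrc1). Ccl7 was 127 and 199 CPM there in PRMT1FL mice and 172 and 171 CPM in PRMT1Cx3cr1-KO mice, and Ccl24 was 97.6 and 80.8 CPM against 145 and 190.3 CPM. Ccl2 was 233 and 252 CPM against 227 and 232 CPM in the same cells, from 110 and 100 UMIs against 58 and 95 UMIs. The 4 mice thus lay close together in F-like 1, and the difference of this pattern from that in microglia was not tested. Another cluster with the same markers, F-like 2, had Ccl7 at 116, 80.4, 140.0 and 40.7 CPM, and 36.0% of its cells were marked as doublets. Ccl2 in F-like 2 was 148 and 108 CPM in PRMT1FL mice and 161 and 62.6 CPM in PRMT1Cx3cr1-KO mice, so there the mice did not lie close together.

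Monocyte-like cells, 22 in all, had Ccl6 at 1067 and 1198 CPM in PRMT1FL mice and 1222 CPM in the 1 PRMT1Cx3cr1-KO mouse that had any, and Ccl9 at 523, 255 and 666 CPM. Neutrophil-like cells were found in the PRMT1FL mice only, 23 and 46 of them, with Ccl6 at 863 and 1123 CPM. These values rest on few cells and were not compared between genotypes.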
